A study of Drosophila melanogaster with 4 samples.

Results

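The 10 ecdysone response genes described here are EcR, usp, tai, br, Eip74EF, Eip75B, Eip78C, Hr4, Hr39 and ftz-f1. They were chosen by name as the receptor, a coactivator and known targets, and found by their coordinates among 17438 genes or joint loci of Drosophila melanogaster. Ribosome footprints, fragments of mRNA that survive nuclease treatment because a ribosome sits on them, were counted for them in 4 ovary libraries, 2 from RpS5b mutant females and 2 from wildtype females. RpS5b encodes a protein of the small ribosomal subunit, and the labels do not name the allele. In both genotypes the ovaries came from young females 48 hours after they emerged as adults. Stage 10 to 14 egg chambers, where present, had been picked out of the control ovaries by hand, and the labels state no such step for the mutant. The comparison addressed here is whether footprints on the hormone receptor and on its target genes differed between mutant and wildtype ovaries.

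Ecdysone is the steroid hormone of insects, and its active form binds a receptor made of the nuclear receptor proteins EcR and Usp. The bound receptor recruits coactivators such as Taiman, the product of tai, and switches on early genes that themselves encode transcription factors. Several of these are nuclear receptors that repress or activate a later tier of genes. In the ovary the hormone is made within egg chambers and acts in follicle cells and germline, at the passage through mid-oogenesis, in the migration of border cells and in the making of the eggshell.

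The file headers gave totals of 13942184 and 8714570 reads for the mutant libraries, against 3122299 and 6170623 reads for wildtype. Between 54.8% and 63.95% of counts lay on tRNA genes, and protein-coding genes held 4599773 and 3066271 counts in mutant libraries and 1053397 and 1737935 in wildtype libraries. RpS5b itself had 10 and 9 counts in the mutant libraries and 287 and 342 in the wildtype libraries (log2 fold change -6.43, SE 0.29, edgeR adjusted p = 2.54e-05), which matched the labels. The germline marker vas stood at 107 and 120 CPM in mutant and 115 and 111 CPM in wildtype libraries, and the follicle cell marker tj at 159 and 163 CPM in mutant and 78.4 and 71.8 CPM in wildtype, so markers of both ovarian cell classes were present. CPM are counts per megacount of the library size, scaled by TMM. Whether libraries of 1 genotype stem from separate groups of flies is not stated, and the p-values reflect only how far these libraries differ, which can be a technical spread. A footprint count rises with the amount of an mRNA, with the ribosomes on it and with the number of cells that hold it, and in whole ovaries these cannot be told apart.

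Footprints on several target genes and on the coactivator tai were higher in mutant ovaries, while usp, 1 of the 2 receptor genes, was lower. Of the 10 genes, 9 had enough counts to be tested. Among these, br, Hr4, Eip75B and tai rose in mutant ovaries, usp fell, and EcR, Eip74EF, Hr39 and ftz-f1 did not pass an adjusted p of 0.05 in edgeR's quasi-likelihood test. The 4 rises were 44.4% of the members tested, where 20.5% of all 7784 genes tested rose. The 1 fall was 11.1%, where 20.9% of all genes fell, and 41.4% of all genes were called in either direction. The CPM of the genotypes did not overlap for 6 tested members that were higher in the mutant, where the same held for 37.5% of all genes tested, and for 2 that were lower, where it held for 34.3%. The median log2 fold change, mutant over wildtype, was 0.55 over the 9 members and 0.03 over all genes tested. These shares describe the list, which was chosen with earlier results of these data known, and were not tested against other lists.

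**Figure D1:**
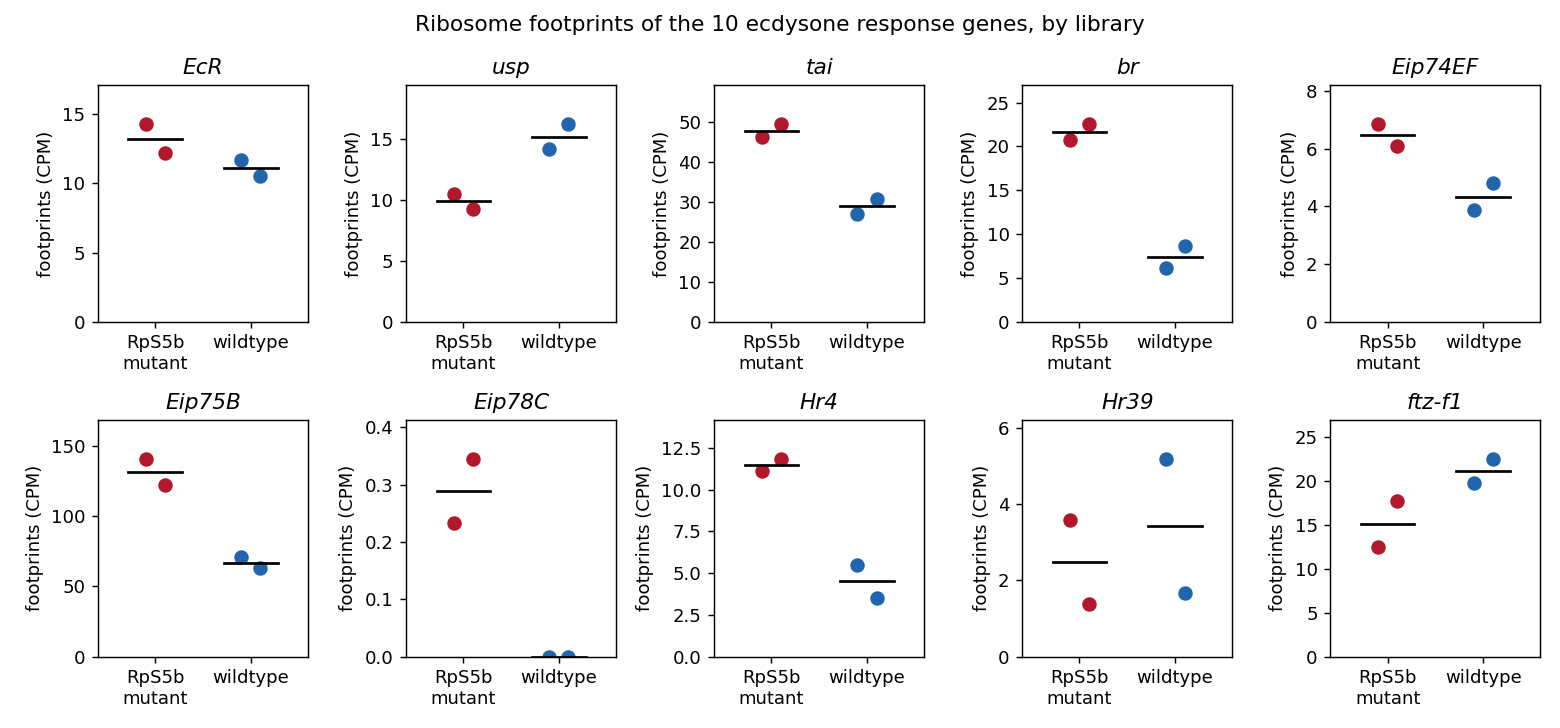
Footprint level in CPM (vertical axes, each starting at 0) of each of the 10 genes in RpS5b mutant (red, left) and wildtype (blue, right) libraries; points are libraries and black lines are means of 2. For br, tai, Eip75B and Hr4 both mutant points lie above both wildtype points, for usp both lie below, and for Hr39 the points of the genotypes overlap.

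Per kilobase of the counted transcript, Eip75B stood far above the other members. It averaged 35.0 ± 3.49 CPM per kilobase in mutant and 17.9 ± 1.38 in wildtype libraries (SD, n = 2 each), 5.98 times the next member in the mutant and 3.56 times the next in wildtype. In mutant libraries tai followed at 5.85 ± 0.281 and br at 4.90 ± 0.277 CPM per kilobase, and the libraries of these genes did not overlap. Then came usp at 3.26 ± 0.280, EcR at 3.23 ± 0.357 and ftz-f1 at 2.56 ± 0.640 CPM per kilobase, where usp and EcR overlapped and so did EcR and ftz-f1. Hr4 at 1.15 ± 0.0496, Eip74EF at 1.08 ± 0.0895 and Hr39 at 0.753 ± 0.473 CPM per kilobase each overlapped with the next in this order. In wildtype libraries the level of usp, at 5.02 ± 0.463 CPM per kilobase, came next after Eip75B. It was followed by ftz-f1 at 3.58 ± 0.330 and tai at 3.54 ± 0.341, which overlapped, and by EcR at 2.71 ± 0.197. The wildtype level of br was 1.68 ± 0.403 CPM per kilobase, which overlapped with Hr39 at 1.04 ± 0.757. Those of Eip74EF and Hr4 were 0.722 ± 0.107 and 0.451 ± 0.141, and each of them overlapped with Hr39. Thus br stood above EcR and usp in both mutant libraries and below both of them in the wildtype libraries. These levels divide by the length of the whole transcript, untranslated regions included, and the order of genes was not checked with coding lengths. Eip78C was lowest in both genotypes.

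EcR, which encodes the hormone-binding partner of the receptor, was not called. Its counted transcript, FBtr0086011, spans 6092277 to 6131922 of chromosome 2R (minus strand, BDGP6, as all positions here). EcR had 14.2 and 12.2 CPM in mutant libraries, against 11.7 and 10.5 CPM in wildtype libraries. Both mutant values were the higher ones, but the log2 fold change of 0.27 (SE 0.18) did not pass (edgeR adjusted p = 0.26). Its 95% interval ran from -0.15 to 0.69, so these 4 libraries leave room for a small fall or a moderate rise. All 6 annotated EcR transcripts, which share reads, had mutant over wildtype ratios between 1.19 and 1.27.

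The partner receptor gene usp, the fly's retinoid X receptor, fell. Its transcript FBtr0333803 lies on chromosome X at 2038798 to 2042311, on the minus strand. It had 10.5 and 9.30 CPM in mutant libraries and 14.3 and 16.2 CPM in wildtype libraries, so the genotypes did not overlap. The log2 fold change was -0.63 (SE 0.17, edgeR adjusted p = 0.0227). The call was lost without wildtype replicate 2 (-0.53, edgeR adjusted p = 0.138), without mutant replicate 2 (-0.54, adjusted p = 0.0659) and with the DESeq2 test (adjusted p = 0.131). It was also lost with scaling by total counts (edgeR adjusted p = 0.0547) and after thinning to equal totals (-0.40, adjusted p = 0.189). The 5′ 523 nt of this transcript share 265 nt with exons of the neighbouring gene Actn on the same strand and 196 nt with CG4313 on the opposite strand. The remaining 2515 nt, held by both usp transcripts, had 8.95 and 7.23 CPM in mutant libraries, against 12.6 and 14.6 CPM in wildtype. The 523 nt had 1.56 and 2.07 CPM in the mutant and 1.62 and 1.66 CPM in wildtype. These levels rest on 20 and 18 counts in the mutant and 5 and 9 in wildtype, too few to show whether this part fell too. The lower level was thus seen in the part that neither neighbour shares.

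The coactivator gene tai rose. Taiman is a p160-type coactivator of the ecdysone receptor and is needed for border cells to migrate. Its transcript FBtr0303870 lies on chromosome 2L at 9176358 to 9247186, on the plus strand. It had 46.1 and 49.4 CPM in mutant libraries, against 26.9 and 30.8 CPM in wildtype libraries, with no overlap. The log2 fold change was 0.72 (SE 0.14, edgeR adjusted p = 0.00547). In both genotypes tai had a higher level per kilobase than EcR.

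**Figure D2:**
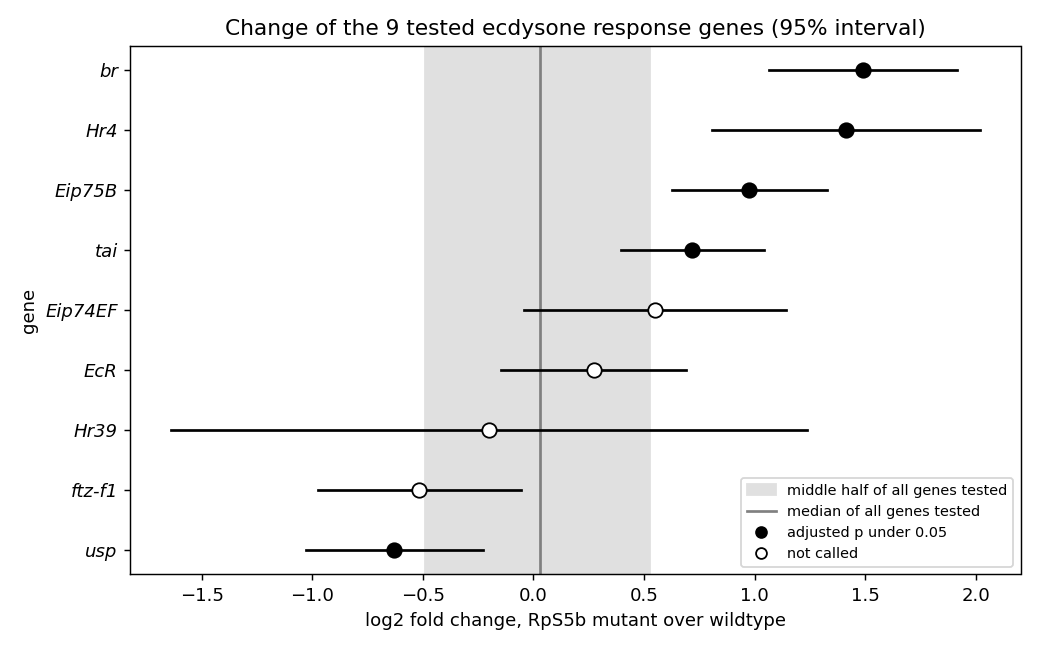
Log2 fold change, RpS5b mutant over wildtype (horizontal axis), of the 9 tested genes with 95% intervals; filled points passed an adjusted p of 0.05, and the grey band spans the lower to the upper quartile of all 7784 genes tested, from -0.49 to 0.53. The intervals of br, Hr4 and Eip75B lie wholly above the band, and that of Hr39 runs from -1.64 to 1.23.

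Among early genes, br changed most. It encodes the Broad proteins, zinc finger transcription factors that pattern the dorsal follicle cells which build the eggshell's appendages. Its transcript FBtr0070262 lies on chromosome X at 1612341 to 1645162, on the plus strand. The counts were 267 and 196 in mutant libraries and 19 and 47 in wildtype libraries. In CPM this was 20.8 and 22.5 in the mutant, against 6.15 and 8.67 in wildtype, a wide gap between the genotypes compared with the spread within them. The log2 fold change was 1.49 (SE 0.18, edgeR adjusted p = 0.000843), above that of 96.6% of all genes tested.

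Eip75B, the most abundant member in both genotypes, rose in the mutant. It encodes a haem-binding nuclear receptor related to the vertebrate REV-ERB receptors, which represses transcription and acts in the egg chamber's decision to develop or die at mid-oogenesis. The transcript FBtr0075151 lies on chromosome 3L at 17953358 to 17961814, on the minus strand. Eip75B had 141 and 122 CPM in mutant libraries and 70.6 and 63.3 CPM in wildtype libraries. Both mutant values stood well above both wildtype values, with a log2 change of 0.97 (SE 0.15, edgeR adjusted p = 0.00214). It took 52.8% and 48.3% of the counts of the 10 genes in mutant libraries, against 43.1% and 39.1% in wildtype.

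The remaining early genes were low. Eip74EF, which encodes a transcription factor of the ETS family, is counted through FBtr0075202 on chromosome 3L at 17560158 to 17619325, minus strand. It had 6.85 and 6.09 CPM in mutant libraries and 3.89 and 4.80 CPM in wildtype libraries. The genotypes did not overlap, yet the log2 fold change of 0.55 (SE 0.25) did not pass (edgeR adjusted p = 0.121), with a 95% interval from -0.04 to 1.14. Eip78C encodes a nuclear receptor close to that of Eip75B and is counted through FBtr0078307 on chromosome 3L at 21240347 to 21266503, plus strand. It had 3 and 3 counts in mutant libraries and 0 and 0 in wildtype libraries, and was too low to be tested. A count of 0 allows up to 3 counts by counting error, which is 0.972 and 0.554 CPM in the wildtype libraries and lies above the 0.233 and 0.345 CPM seen in the mutant. A difference in Eip78C was therefore not detectable at this depth.

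Of the 3 further nuclear receptor genes, Hr4 rose. Hr4 encodes a repressor that acts at the onset of metamorphosis and is related to vertebrate GCNF. Its transcript FBtr0333344 lies on chromosome X at 1941940 to 2005462, on the plus strand. It had 143 and 103 counts in mutant libraries, against 17 and 19 in wildtype libraries. In CPM this was 11.1 and 11.8 in the mutant and 5.51 and 3.51 in wildtype, without overlap and with close mutant values. The log2 fold change was 1.41 (SE 0.26, edgeR adjusted p = 0.00436). It was 1.04 without wildtype replicate 2 and 1.70 without wildtype replicate 1, the widest shift of any called member, and passed in both cases.

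Hr39 and ftz-f1, both of the Ftz-F1 family of receptors, were not called. ftz-f1 encodes a factor that makes tissues competent to answer the next hormone pulse, and is counted through FBtr0304627 on chromosome 3L at 18750607 to 18765744, minus strand. It had 12.5 and 17.8 CPM in mutant libraries and 19.8 and 22.5 CPM in wildtype libraries, so both mutant values were the lower ones. The log2 fold change of -0.52 (SE 0.20) missed the threshold (edgeR adjusted p = 0.0697). It passed with protein-coding genes alone (edgeR adjusted p = 0.0186) and without the low-count filter (edgeR adjusted p = 0.00707), but not with DESeq2 (adjusted p = 0.25). The value hung on single libraries, at -0.77 without mutant replicate 2 and -0.29 without mutant replicate 1. Of its 4 transcripts 2 share 1930 nt that the others lack, where 7 and 13 counts in the mutant and 8 and 11 in wildtype gave few reads to compare, and where 0.545 and 1.49 CPM lay in mutant libraries and 2.59 and 2.03 CPM in wildtype. Hr39, needed for the glands of the female reproductive tract, is counted through FBtr0081480 on chromosome 2L at 21237250 to 21258196, plus strand. It had 46 and 12 counts in mutant libraries and 16 and 9 in wildtype libraries. In CPM this was 3.58 and 1.38 in the mutant and 5.18 and 1.66 in wildtype, so replicates differed more than genotypes. Its log2 fold change was -0.20 (SE 0.62, edgeR adjusted p = 0.821) and turned to 0.65 without wildtype replicate 1.

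Because each library's scaling drops out of a ratio of 2 genes counted in it, the counts were also set against those of EcR. The ratio of br to EcR was 1.46 and 1.85 in mutant libraries, against 0.528 and 0.825 in wildtype. Eip75B had 9.87 and 10.0 times the counts of EcR in the mutant and 6.06 and 6.02 times in wildtype, with little spread within a genotype. Hr4 stood at 0.781 and 0.972 of EcR in the mutant and at 0.472 and 0.333 in wildtype. In the other direction, usp stood at 0.738 and 0.764 of EcR in mutant libraries, against 1.22 and 1.54 in wildtype, and ftz-f1 at 0.874 and 1.46 in the mutant, against 1.69 and 2.14 in wildtype. For these 5 genes the genotypes did not overlap, and the same held for tai, at 3.24 and 4.06 in the mutant and 2.31 and 2.93 in wildtype. It held for Eip74EF too, at 0.481 and 0.50 in the mutant and 0.333 and 0.456 in wildtype. Hr39 overlapped, at 0.251 and 0.113 in the mutant and 0.444 and 0.158 in wildtype. Of all 7783 other genes tested, the ratio to EcR lay higher without overlap in the mutant for 23.3% and lower for 44.9%, beside 5 and 2 of the 8 members. No p is given, because the smallest that an exact two-sided permutation test allows with 2 libraries per genotype is 0.333.

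The annotated transcripts of each called gene differed in the same direction. All 14 br transcripts were higher in both mutant libraries than in both wildtype libraries, with ratios of mean CPM between 2.41 and 3.30. The same held for all 9 of Hr4, with ratios between 2.19 and 2.55, for all 7 of Eip75B, between 1.94 and 1.96, and for all 6 of tai, between 1.64 and 1.71. Both usp transcripts and all 4 of ftz-f1 were lower, with ratios of 0.594 and 0.649 for usp and between 0.683 and 0.749 for ftz-f1. Within tai, a stretch of 324 nt at 9244263 to 9244586, held by 4 of its transcripts, overlapped between the genotypes, with 3.03 and 2.64 CPM in the mutant and 2.27 and 2.95 CPM in wildtype. The 6 transcripts of EcR and the 5 of Eip74EF, with ratios between 1.27 and 1.49, were also higher in both mutant libraries, and the 4 of Hr39 overlapped. Transcripts of a gene share exons and reads, so these are not separate measurements.

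Since the counts of overlapping transcripts are sums over shared exon parts, they limit what each part can hold. Of 4173 genes with 2 to 8 transcripts and a mean count of at least 10, the counts of all 4173 could be written as such sums in all 4 libraries. This is a weak check, since a transcript with an exon part of its own can take any surplus of counts there. It also left out br, which has 14 transcripts. The br gene has alternative 3′ ends that follow a shared 5′ region, and the Broad proteins differ in the pair of zinc fingers that these ends encode. The end at 1643068 to 1645162 on chromosome X, held by 5 transcripts, had between 7.94 and 8.87 CPM in mutant replicate 1 and between 6.43 and 7.35 CPM in mutant replicate 2. In wildtype replicate 1 it had 2.27 CPM and in wildtype replicate 2 between 1.11 and 1.29 CPM. The end at 1658788 to 1664869, held by 2 transcripts, had between 2.96 and 3.89 CPM and between 2.07 and 2.98 CPM in the mutant libraries, against 0.648 CPM and between 0.738 and 0.923 CPM in wildtype. Thus both of these ends were higher in both mutant libraries. The wildtype levels rest on few counts, 7 and 6 to 7 for the first of these ends and 2 and 4 to 5 for the other. The ranges do not include counting error. The ends at 1647365 to 1649378 and at 1654392 to 1655369 held at most 1.17 CPM in any library, and their ranges overlapped between the genotypes. The named Broad isoform of each end was not looked up here.

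**Figure D3:**
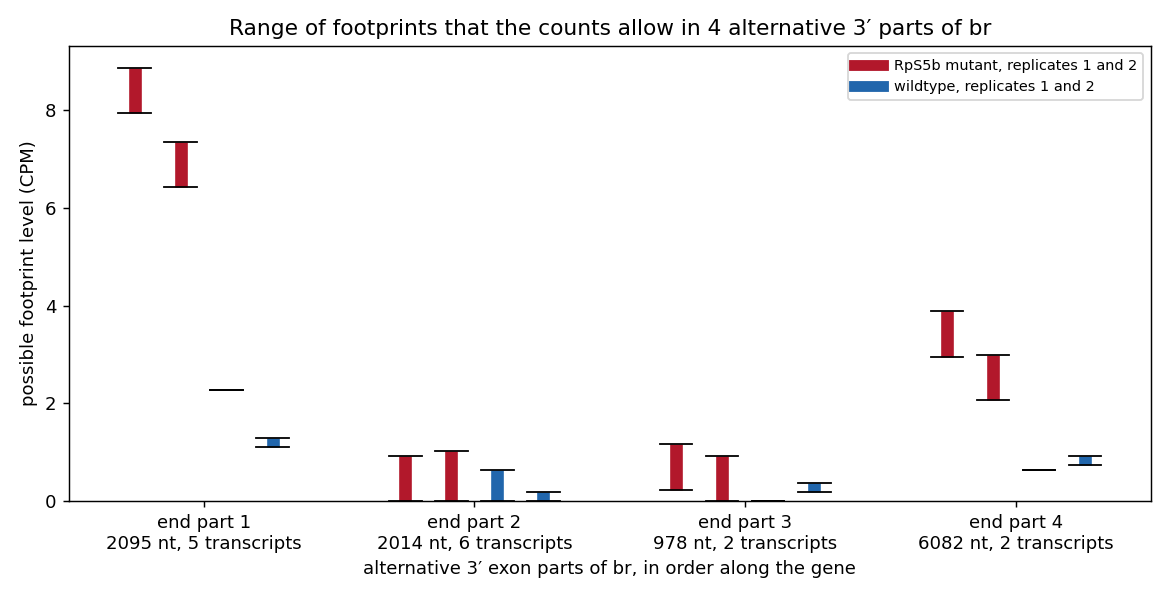
Lowest to highest footprint level in CPM (vertical axis) that the deposited counts allow in 4 alternative 3′ exon parts of br, in order along the gene, for each RpS5b mutant (red) and wildtype (blue) library; a single black line marks a level fixed by the counts. Parts 1 and 4 are higher in both mutant libraries, and parts 2 and 3 hold at most 1.17 CPM. The ranges leave out counting error.

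Other genes of the pathway changed in both directions. Of 37 further genes in 4 lists, 25 were tested, of which 9 rose and 6 fell in mutant ovaries, with a median log2 fold change of 0.32. These shares, 9 and 6 of 25, stand beside 20.5% and 20.9% for all genes, as do the counts called in each list below. Without wildtype replicate 2 the rises numbered 3, and without wildtype replicate 1 there were 4 rises and 3 falls. Without mutant replicate 1 there were 4 rises.

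Of 8 tested cofactor genes, 5 fell and 1 rose, with a median of -0.47. The gene rig, which encodes the Gemin5 protein and is needed for hormone responses in larvae, had 34.4 and 37.3 CPM in mutant libraries and 111 and 118 CPM in wildtype libraries. That is a log2 ratio of -1.67 (SE 0.14, edgeR adjusted p = 0.000164). Iswi, the ATPase of chromatin remodelling complexes, was at 63.0 and 63.0 CPM in the mutant and 99.4 and 97.1 CPM in wildtype (log2 fold change -0.64, SE 0.13, edgeR adjusted p = 0.00663). Its call was lost with scaling by total counts (edgeR adjusted p = 0.0556). The nuclear receptor gene Hr78 rose by 0.50 on the log2 scale (SE 0.14, edgeR adjusted p = 0.0280), a call that was lost whenever any 1 library was left out. It was also lost with DESeq2 (adjusted p = 0.294) and after thinning to equal totals (edgeR adjusted p = 0.108). The methyltransferase gene trr was at 0.04 (SE 0.17) and was not called.

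Among genes that handle the hormone, Cyp18a1 rose. It encodes the enzyme that inactivates ecdysteroids by hydroxylation. It had 70.6 and 75.9 CPM in mutant libraries, against 26.9 and 28.8 CPM in wildtype libraries, with a log2 change of 1.39 (SE 0.14, edgeR adjusted p = 0.000329). E23, which encodes a membrane transporter thought to export the hormone, fell, with 2.72 and 2.41 CPM in mutant and 8.74 and 4.98 CPM in wildtype libraries, and had a log2 change of -1.32 (SE 0.34, edgeR adjusted p = 0.0171). It lies below the level set for naming, was named after its values were seen, and was not examined under the alternative settings. Oatp74D, the importer of the hormone, was at 0.32 (SE 0.20) and was not called.

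Of 16 other genes known to be induced by ecdysone, 8 were tested, 5 rose and 0 fell at the adjusted threshold. Among the 8 untested ones, ImpE2 and the cuticle genes Edg78E, Edg84A and Edg91 had 0 counts in all 4 libraries. Hr3, a nuclear receptor gene that activates ftz-f1 during metamorphosis, had 158 and 86 counts in mutant libraries, against 5 and 6 in wildtype libraries. In CPM this was 12.3 and 9.88 in the mutant and 1.62 and 1.11 in wildtype (log2 fold change 3.09, SE 0.33, edgeR adjusted p = 0.000501). The counted transcript shares 6065 nt of exon with CG46321 and 3882 nt with CG12912 on the same strand, so the gene of origin of these reads is uncertain. Another Hr3 transcript, FBtr0112799, had 118 and 52 counts in mutant and 5 and 3 in wildtype libraries. A transcript of CG12912 had 119 and 53 counts in mutant and 8 and 4 in wildtype libraries, so these counts do not settle the origin either. The transcription factor gene vri rose by 0.59 on the log2 scale (SE 0.16, edgeR adjusted p = 0.0216), but lost its call with DESeq2 (adjusted p = 0.211). It also lost its call when either wildtype library was left out (log2 fold changes 0.55 and 0.63) or mutant replicate 1 was (0.47). Eip63E at -0.23 and Cth, once named Eip55E, at -0.10 were not called.

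Of 6 tested egg chamber genes with ties to hormone signalling, 2 rose and 0 fell at the adjusted threshold. Kr-h1, a zinc finger gene of the juvenile hormone response, had 20.2 and 25.8 CPM in mutant and 9.39 and 9.41 CPM in wildtype libraries. Its log2 fold change was 1.28 (SE 0.18, edgeR adjusted p = 0.00160), and it shares 3335 nt of exon with CG45075 on the same strand. Transcripts of CG45075 had 240 and 203 counts in mutant and 29 and 45 in wildtype libraries, against 259 and 225 in mutant and 29 and 51 in wildtype for Kr-h1, so the origin of these reads is uncertain too. The border cell gene slbo, also among the follicle cell markers, was named after its values were seen and not examined under the alternative settings. It had 54 and 29 counts in mutant libraries and 5 and 3 in wildtype libraries, with a log2 change of 1.99 (SE 0.48, edgeR adjusted p = 0.0142). The repressor gene ttk was at 0.31 (SE 0.13) and was not called. Among 14 nuclear receptor genes that are not members, 5 were tested, with rises of Hr3, Hnf4 and Hr78. Hnf4, a receptor of lipid metabolism, stood at 37.3 and 31.9 CPM in the mutant and 16.8 and 12.7 CPM in wildtype (log2 fold change 1.26, SE 0.17, edgeR adjusted p = 0.00136).

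**Figure D4:**
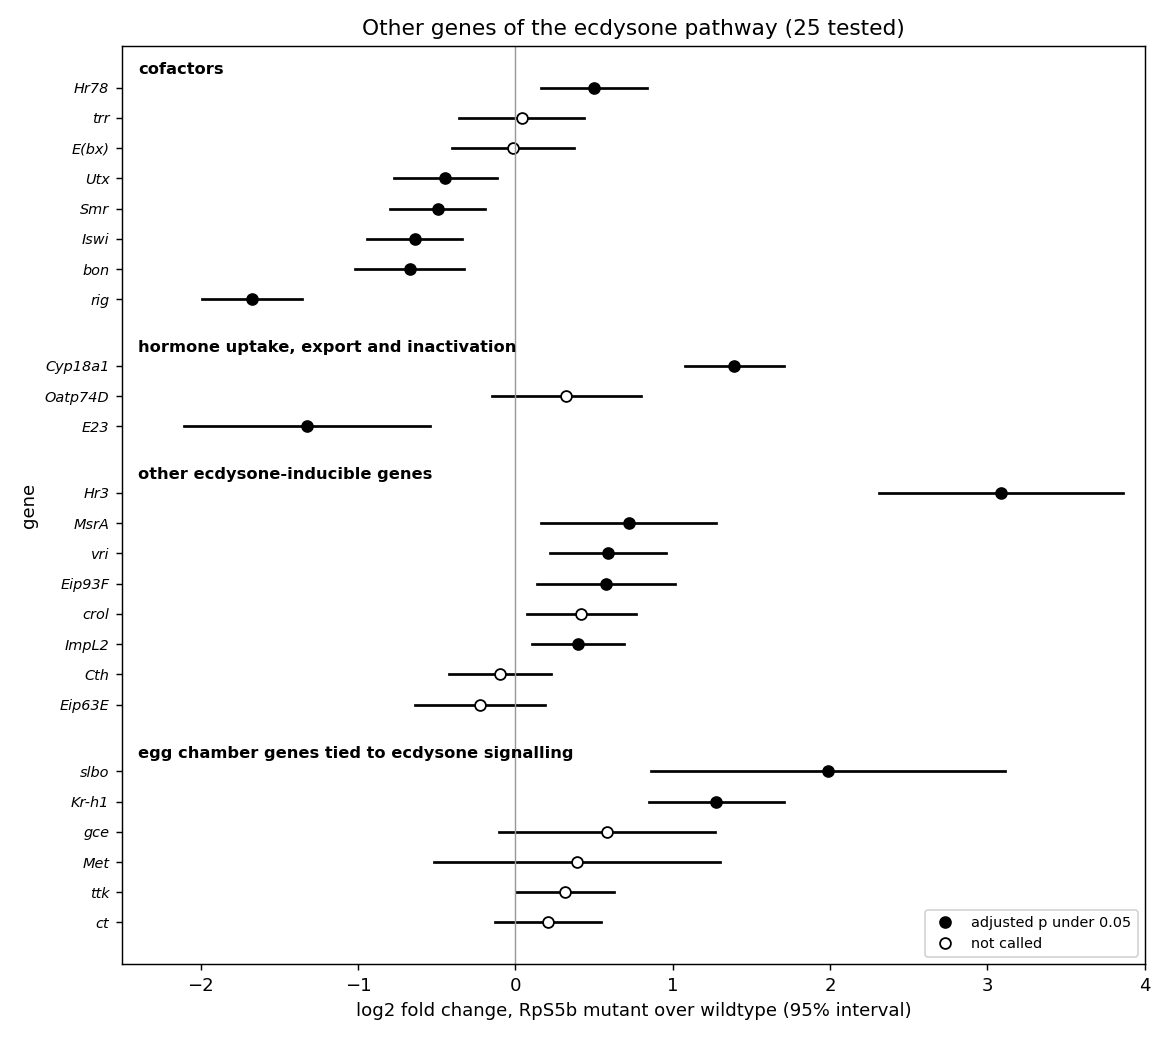
Log2 fold change, RpS5b mutant over wildtype (horizontal axis), with 95% intervals for 25 tested pathway genes in 4 lists; filled points passed an adjusted p of 0.05. Hr3 has the highest value, 3.09, and rig the lowest, -1.67, and the cofactors hold 5 of the 6 falls.

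Markers of some cell types and stages also differed between the genotypes. Of 8 tested follicle cell markers 7 rose and Cad74A fell, with a median of 1.06, and their summed level was 376 and 369 CPM in mutant libraries, against 264 and 239 CPM in wildtype. All 9 chorion genes, made by follicle cells of late egg chambers, fell, with sums of 1601 and 1124 CPM in the mutant and 7097 and 4801 CPM in wildtype. The 3 yolk protein genes rose, summing to 4236 and 3616 CPM in the mutant and 1202 and 691 CPM in wildtype, and of 7 vitelline membrane genes 4 rose and 1 fell. Of 8 tested germline markers 1 rose and 1 fell, and their sums were 572 and 643 CPM in the mutant and 680 and 629 CPM in wildtype. The part of cell makeup and stage in the changes of br, Eip75B, Hr4 and tai was not tested. Fat body genes summed to 57.0 and 50.9 CPM in mutant libraries and 46.0 and 35.1 CPM in wildtype, and of 3 tested ones apolpp rose (log2 fold change 1.16, SE 0.15, edgeR adjusted p = 0.00114) and Mtp fell (-0.94, SE 0.20, adjusted p = 0.00736). The fat body genes Fbp1 and Fbp2 were at 0 counts throughout, and Lsp2 and Lsp1beta had 7 and 3 counts in mutant replicate 1 and 0 elsewhere. None of the 7 muscle genes or of the 3 tested haemocyte genes was called, with muscle sums of 183 and 135 CPM in the mutant and 204 and 138 CPM in wildtype. Haemocyte sums were 55.9 and 49.6 CPM in the mutant and 50.9 and 48.0 CPM in wildtype. The 1 tested nerve and tracheal marker, elav, was not called, Syt1 was at 0 counts throughout, and that list summed to 3.97 and 3.90 CPM in the mutant and 4.21 and 2.58 CPM in wildtype.

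Across the 4 libraries, the 3 genes whose centred log2 CPM lay closest to those of EcR were Liprin-alpha, CG30349 and flfl, among 4186 protein-coding genes with a mean of at least 10 CPM. Their root mean square distances to EcR were 0.0144, 0.0175 and 0.0201 on the log2 scale. Each had a log2 fold change between 0.27 and 0.28 that was not called, so the likeness describes 4 values that hardly differ.

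**Figure D5:**
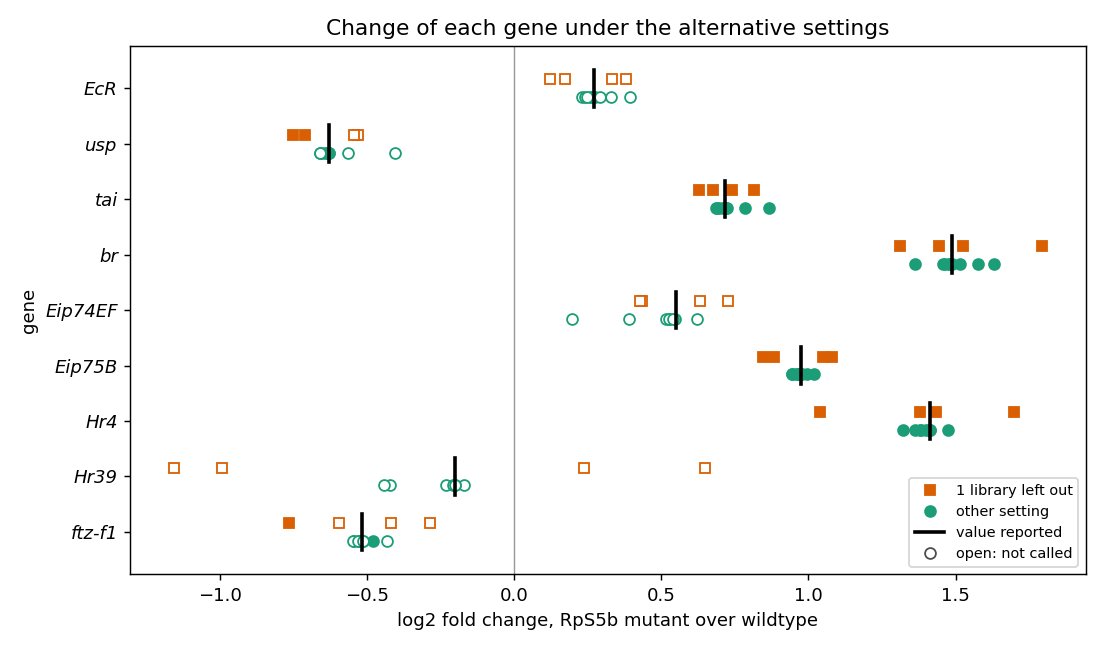
Log2 fold change, RpS5b mutant over wildtype (horizontal axis), of the 9 tested genes under each alternative setting; squares leave out 1 library, circles change another setting, open symbols were not called and black bars are the values reported. The symbols of br, Eip75B, Hr4 and tai are filled throughout, and those of Hr39 lie on both sides of 0.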

How the data were processed

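Per the file headers, the authors' deposited counts are reads of 25 to 100 nt, placed 12 nt from the 5′ end and counted in each whole transcript that holds that position, untranslated regions included. The deposited tables also give transcript lengths in nt. Per the submitters' processing notes, the build was BDGP6 and bedtools 2.26.0, SAMtools 0.1.19, TopHat2 2.1.2, Bowtie 1.0.0 and DESeq2 were among the tools, with roles not given in the sources used here.

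Of 34729 transcripts, 34540 (99.5%) were tied by coordinates to a RefSeq Release 6 gene. The transcript with the highest mean count stands for a gene. The 189 transcripts tied to no gene held at most 0.204% of counts and were left out. Genes passing filterByExpr, 7784, were scaled by TMM and tested with edgeR 4.0.16 (R 4.3.3) quasi-likelihood, genotype the single term, Benjamini-Hochberg over all genes. SE is the log2 fold change over the root of F. The fit had 2 residual and 5.53 prior degrees of freedom. The procedure was tested on simulated data. DESeq2 1.42.0, other scalings, filters, thinning, the longest transcript, a replicate block and each library left out were alternatives. Replicates of a genotype differed beyond sampling noise (chi-square per degree of freedom 42.3 in mutant and 14.5 in wildtype pairs). Exon part ranges came from linear programming.

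Members and lists were chosen with earlier results of these data known. Named besides the members are, per list, up to 2 tested genes per direction, of lowest p, that average at least 5 CPM, and the 3 genes closest to EcR. E23, slbo, genes at 0 counts and single marker genes were named outside this rule, after their values were seen. Their single values under the alternatives were not examined. Limits for 0 counts cover counting error alone, since no molecular identifiers are stated. The germline marker nos had no match and was not analysed here.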

Additional observations from a re-analysis of the deposited data

How the results depend on the processing

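The rises of br, Eip75B, Hr4 and tai passed in each of 13 alternatives, with log2 fold changes from 1.31 to 1.79, 0.85 to 1.08, 1.04 to 1.70 and 0.63 to 0.86, so 4 members rose in every setting run. In settings that kept all 4 libraries, the count of members that fell, 1, was 0 with DESeq2, with scaling by total counts and after thinning to 1 total. It was 2 with protein-coding genes alone, without the low-count filter and with the replicate block, where ftz-f1 joined usp. Without wildtype replicate 2 the log2 fold change of usp was -0.53. Without mutant replicate 2 the larger fall was that of ftz-f1, at -0.77, against -0.54 for usp. The fall of usp lost its call in 5 of 13 alternatives. EcR and Eip74EF were called in none that gave a value, 13 and 12. Of the 37 other pathway genes, 9 rose, but 4 with DESeq2, 5 after thinning and 3 to 7 with 1 library left out, and 6 fell, but 3 with scaling by total counts and 3 to 5 with 1 library left out. With 1 library left out, uncalled values lay on both sides of 0 for Hr39 (-1.16 to 0.65, and 0.24 without mutant replicate 2), trr (-0.039 to 0.14) and Cth (-0.23 to 0.011). The causes were not tested. With the replicate number as a block, 4 members rose and 2 fell, and over all genes 3852 were called, against 3224 without it. Deviations of equal numbers correlated at 0.26 over genes, which with 2 pairs does not show that the numbers pair the libraries. DESeq2 called 1985 genes and the longest transcript 3216. With total counts 54.1% of the calls were rises, against 49.5% as reported. Wildtype depth limits Eip78C.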
